A study of Mus musculus with 4 samples.

Results

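The genes described here encode the factors that start and elongate protein synthesis in mouse cells, together with enzymes and partners that carry the same name. They were chosen by symbol: protein-coding genes named Eif1 to Eif6 or Eef, leaving out the Eif2ak kinases and the Eif4ebp binding proteins, and present in both deposited gene tables. That gave 59 genes out of 13478 genes in both tables. The rule used no measured value beyond presence in both tables, but the genes were chosen with earlier results of these data known. All 59 such genes of the mutant table were found in the wild-type table.

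Initiation joins the small ribosomal subunit, the initiator tRNA and an mRNA. eIF2 carries the initiator tRNA and is recharged with GTP by eIF2B, eIF3 is the large multi-subunit scaffold on the small subunit, and the eIF4 factors bind and unwind the capped end of the mRNA. The elongation factors eEF1 and eEF2 then deliver aminoacyl-tRNA and move the ribosome. Lin28b is an RNA-binding protein known for blocking let-7 microRNA maturation and for binding many mRNAs, and mRNAs of the translation machinery have been discussed among the targets of LIN28 proteins.

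RNA bound to Lin28b was pulled down through its Flag tag, which all cells carried on an overexpressed Lin28b. The cells were mouse pancreatic cancer-associated fibroblasts named 15376CAFs, and the libraries were stranded mRNA libraries. There were 4 libraries in 4 groups of 1: IP and input of cells with Lin28b-MU, a mutant deficient in RNA binding, and IP and input of cells with wild-type Lin28b. With 1 library a group no difference has a replicate check and no test was possible, so every value describes these libraries. Levels are in FPKM (fragments per kilobase of transcript, scaled to library size), as read from the values, since the tables name no unit, and the depth of the libraries is unknown.

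As a check of the labels, 4 of 5 epithelial markers were in both tables, and these (Krt8, Krt18, Krt19 and Cdh1) stood between 114 and 494 FPKM in the mutant input and between 219 and 665 in the wild-type input. Of 11 fibroblast markers, 4 were in both tables: Vim stood at 547 in the mutant input and 607 in the wild-type input, whereas Col1a1, Pdgfra and Acta2 stood between 0.404 and 0.860 in the mutant input and between 0.227 and 1.33 in the wild-type input. Of the other markers, 1 of 5 leukocyte, 0 of 3 endothelial and 0 of 4 acinar genes were in both tables. The defining collagen and receptor genes of fibroblasts were thus near 0 and epithelial keratins were high in both inputs. The part of such cell identity in the recovery values was not tested, and in bulk RNA fewer cells of a type and less RNA per cell cannot be told apart. Lin28b RNA stood at 30.01 FPKM in the mutant input and 13.8 in the wild-type input.

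The translation factor genes were well expressed in both cultures. Their median input level was 64.2 FPKM in the mutant and 51.5 in the wild type, against 11.7 and 11.4 for all protein-coding genes in both tables. Inputs lay within 2-fold of each other for 55 of the 59 genes. For 1 gene, Eif2s3x, the mutant input exceeded that of the wild type by 2-fold or more, as it did for 8.7% of all genes. It was at least 2-fold below for Eif3j2, Eif5a2 and Eef2k, as for 8.32% of all genes.

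Recovery is given as the log2 ratio of IP over input, with 0.01 added to each level as in the deposited ratio, and a gene is called higher or lower where the IP is at least 2-fold from its input. In the mutant IP, 1 gene was higher and 25 were lower (42.4% of the 59), where 6.69% of all genes of the mutant table were higher and 37.8% lower. In the wild-type IP, 3 genes were higher and 9 were lower (15.3%), where 8.59% of all genes of that table were higher and 23.3% lower. All 9 genes lower in the wild type were lower in the mutant too. The share lower in the mutant was near that of all genes, and the share higher, 1.69%, was below it. Of protein-coding genes in both tables, 5.71% were higher and 32.5% lower in the mutant, and 6.85% and 18.8% in the wild type.

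The median log2 ratio of the 59 genes was −0.66 in the mutant and −0.12 in the wild type. Over all genes of each table it was −0.61 in the mutant and −0.29 in the wild type. After each table was centred on that median, the values for the translation factors became −0.0518 in the mutant and 0.17 in the wild type, so the sign of the wild-type median depends on the centring. A ratio between −0.61 and 0 in the mutant, or between −0.29 and 0 in the wild type, thus turns positive on centring. On the centred scale 12 of the 25 genes lower in the mutant no longer passed the threshold: Eif1b, Eif2b2, Eif2b3, Eif2b4, Eif3f, Eif3g, Eif4e, Eif6, Eef1akmt2, Eef1akmt3, Eefsec and Eif1ad. In the wild type 3 of the 9 no longer passed, Eif2b4, Eif3g and Eif5a. Below, values are uncentred unless said otherwise.

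Between constructs, the log2 ratio was lower in the mutant for 50 of the 59 genes (84.7%), where it was lower for 63.2% of all genes in both tables. After centring these shares were 69.5% of the 59 and 50.5% of all genes. It was lower by at least 1 for 19 genes (32.2%), against a background of 26.1%, with 11 genes left after centring (Eif2s1, Eif2b5, Eif3k, Eif4a2, Eef1g, Eef1akmt1, Eef1e1 and Eef2kmt were lost), and higher by at least 1 for 1 gene, against 7.37%. The median difference, mutant minus wild type, was −0.58 for the 59 genes and −0.32 for all genes. For 21 genes (35.6%) the ratio was below 0 in the mutant and above 0 in the wild type, a pattern of 18.5% of all genes. On the centred scale 8 of the 59 genes (13.6%) had these opposite signs, against 15.6% of all genes: Eif1ax, Eif2b5, Eif3d, Eif3f, Eif3h, Eif4e, Eef1b2 and Eif1ad. All 19 genes that were lower by at least 1 had input levels less than 2-fold apart. By arithmetic such genes must have less RNA in the mutant IP than in the wild-type IP, so that all 19 did is no separate check. Each table was normalised on its own, which limits every comparison of levels across constructs.

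**Figure D1:**
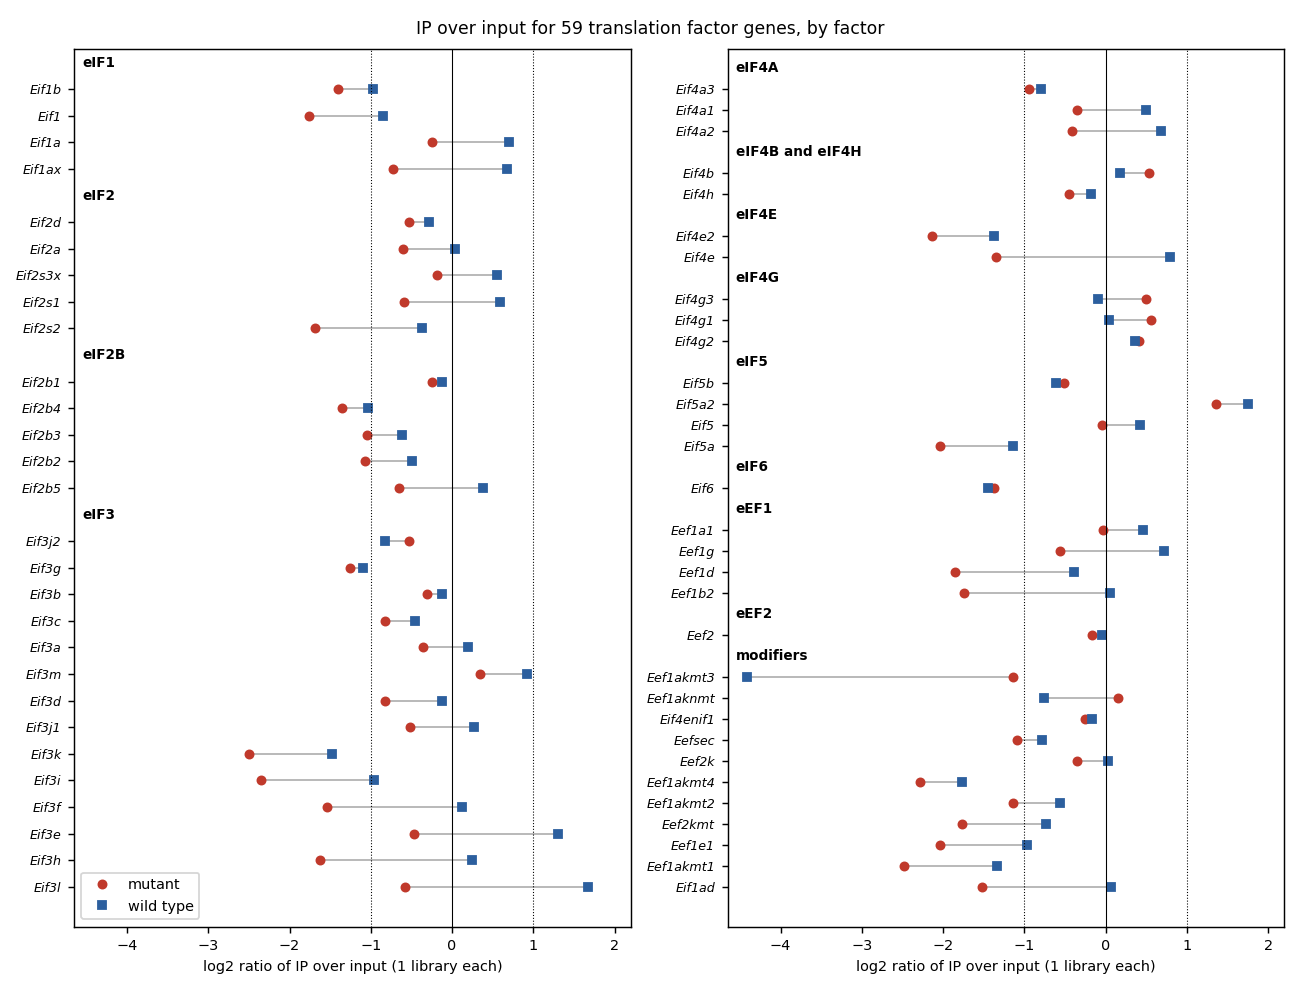
Log2 ratio of IP over input (x axis) for the 59 translation factor genes, grouped by factor, with the mutant as circles, the wild type as squares and dotted lines at 2-fold; each point is 1 library pair. The mutant lies left of the wild type for 50 genes, with the 3 eIF4G genes among the exceptions.

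The genes of eIF3 held 2 of the 3 genes higher in the wild-type IP, Eif3l and Eif3e, and the lowest ratio of the 59 in the mutant, that of Eif3k. Of 14 genes, 5 were lower in the mutant IP (35.7%, against 37.8% of all genes) and none was higher (against 6.69%). In the wild-type IP 2 were higher (14.3%, against 8.59%) and 2 lower (14.3%, against 23.3%). The median log2 ratio of eIF3 was −0.70 in the mutant (−0.10 after centring) and 0.00 in the wild type (0.30 after centring). The mutant ratio was below the wild-type ratio for 13 of 14 genes, by at least 1 for 6 of them, where it was below for 63.2% of all genes and by at least 1 for 26.1%. After centring these counts were 11 and 5.

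Eif3l (chr15:79075179-79094405, GRCm38) encodes a subunit of the eIF3 octamer core that is found in mammals and not in budding yeast. It stood at 88.0 FPKM in the mutant IP against 131 in its input, and at 313 in the wild-type IP against 98.3 in its input. The wild-type IP alone was high, at 3.18-fold its input. The log2 ratio was −0.58 in the mutant (0.03 after centring) and 1.67 in the wild type, a difference of −2.25, the largest of the 59 genes in that direction.

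Eif3e (chr15:43250058-43282719), another octamer subunit, known also as the site of viral integration Int6 in mouse mammary tumours, stood at 67.3 FPKM in the mutant IP against 93.1 in its input. It stood at 314 in the wild-type IP against 127 in its input, 2.47-fold. As for Eif3l, the wild-type IP stood above the other 3 libraries. The log2 ratio was −0.47 in the mutant (0.14 after centring) and 1.31 in the wild type.

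Eif3h and Eif3f encode the pair of eIF3 subunits with an MPN domain. Eif3h stood at 47.5 FPKM in the mutant IP against 146 in its input, 3.07-fold lower, and at 299 in the wild-type IP against 253 in its input. Eif3f stood at 22.4 in the mutant IP against 65.1 in its input, 2.90-fold lower, and at 103 in the wild-type IP against 94.1 in its input. In both genes it was the mutant IP that stood low, while the wild-type IP was within 1.5-fold of its input. The difference in log2 ratio was −1.86 for Eif3h and −1.66 for Eif3f.

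Eif3i and Eif3k stood below their input with either protein, with Eif3i short of 2-fold in the wild type (1.94-fold lower). Eif3i, a beta-propeller subunit, stood at 17.1 FPKM in the mutant IP against 87.1 in its input (5.09-fold lower), and at 44.7 in the wild-type IP against 86.7 in its input. Eif3k, the smallest octamer partner, stood at 18.7 in the mutant IP against 106 in its input (5.64-fold lower), and at 44.3 in the wild-type IP against 123 in its input (2.78-fold lower). Eif3g, an RNA-binding subunit, was lower in both, with log2 ratios of −1.25 in the mutant and −1.10 in the wild type, neither past the threshold after centring. Partner subunits of one complex thus ran from −2.50 to 0.34 in the mutant and from −1.47 to 1.67 in the wild type.

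Eif3m, a further octamer subunit, was the single eIF3 gene with a ratio above 0 in both constructs, short of 2-fold in each, though past it in the wild type after centring (1.22). It stood at 105 FPKM in the mutant IP against 82.5 in its input, and at 147 in the wild-type IP against 77.4 in its input. Eif3a, the largest subunit, had log2 ratios of −0.35 in the mutant (0.25 after centring) and 0.20 in the wild type. The scaffold genes Eif3b, Eif3c and Eif3d lay between −0.83 and −0.31 in the mutant and between −0.45 and −0.12 in the wild type. Eif3j1 had −0.51 in the mutant and 0.27 in the wild type, and its copy Eif3j2 stood below 1 FPKM in all 4 libraries.

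**Figure D2:**
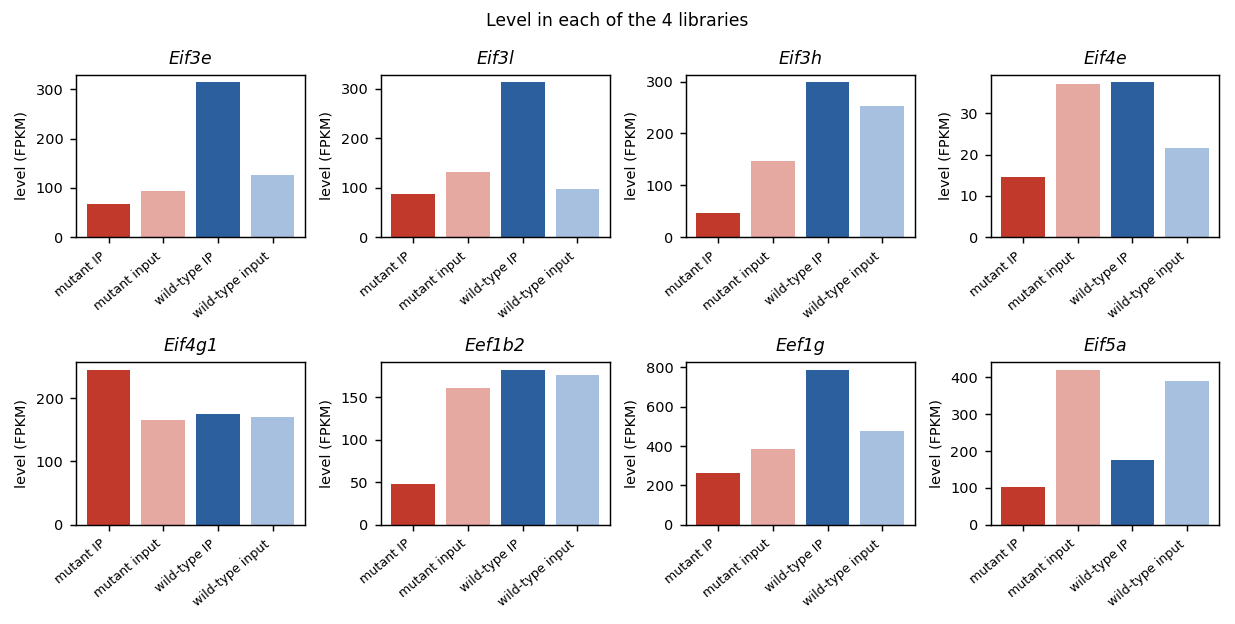
Level in FPKM (y axis, from 0) of 8 translation factor genes in the mutant IP, mutant input, wild-type IP and wild-type input, 1 bar per library, so no error bar can be given. Eif3e and Eif3l are highest in the wild-type IP (314 and 313), Eif4g1 in the mutant IP (245), and Eif5a is lower in both IPs than in the inputs.

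The eIF4 factors, which act at the mRNA cap, divided by subunit. The 3 eIF4G genes, encoding large scaffold proteins of initiation, had ratios above 0 in the mutant, and each had a higher ratio there than in the wild type. The other factor group in which every gene had a higher ratio in the mutant was eIF6, a single gene with a difference of 0.08, and after centring also eEF2, a single gene, and eIF4B with eIF4H. Eif4g1 (chr16:20668313-20692884) stood at 245 FPKM in the mutant IP against 166 in its input, and at 175 in the wild-type IP against 171 in its input. Eif4g2, whose product lacks the cap-binding protein site and serves cap-independent initiation, stood at 139 in the mutant IP against 105 in its input, and at 118 in the wild-type IP against 91.8 in its input. Eif4g3 stood at 22.9 in the mutant IP against 16.3 in its input, and at 20.0 in the wild-type IP against 21.2 in its input.

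None of the 3 eIF4G genes reached 2-fold on the uncentred scale. Their log2 ratios of 0.56, 0.41 and 0.49 in the mutant became 1.17, 1.02 and 1.10 after centring, past the threshold, while in the wild type they were 0.04, 0.36 and −0.09, or 0.33, 0.65 and 0.20 after centring. Eif4b, which stimulates the eIF4A helicase, had a like pattern, with 240 FPKM in the mutant IP against 166 in its input, and 233 in the wild-type IP against 205 in its input. Its log2 ratio was 0.53 in the mutant (1.14 after centring) and 0.18 in the wild type. Its partner in function Eif4h lay below 0 in both, at −0.45 in the mutant and −0.18 in the wild type, and above 0 in both after centring, at 0.15 and 0.12.

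Eif4e (chr3:138526179-138559696), which encodes the cap-binding protein itself, had a lower ratio in the mutant. It stood at 14.5 FPKM in the mutant IP against 37.0 in its input, 2.55-fold lower, and at 37.5 in the wild-type IP against 21.7 in its input, 1.73-fold higher. The log2 ratio was −1.35 in the mutant (−0.75 after centring) and 0.79 in the wild type (1.08 after centring), a difference of −2.14. Eif4e2, a cap-binding homologue known as a repressor, was lower in both, with 11.1 in the mutant IP against 48.6 in its input, and 14.4 in the wild-type IP against 37.3 in its input.

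The RNA helicase genes Eif4a1 and Eif4a2 had less RNA in the mutant IP than in its input and more in the wild-type IP than in its input, each short of 2-fold. Eif4a1 stood at 254 FPKM in the mutant IP against 324 in its input, and at 394 in the wild-type IP against 279 in its input. Eif4a2 stood at 32.5 in the mutant IP against 43.5 in its input, and at 82.8 in the wild-type IP against 51.5 in its input. In the mutant, both signs turned after centring, to 0.25 for Eif4a1 and 0.19 for Eif4a2. Eif4a3, the exon junction complex helicase of the same family, was below 0 in both constructs, at −0.94 in the mutant and −0.80 in the wild type.

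**Figure D3:**
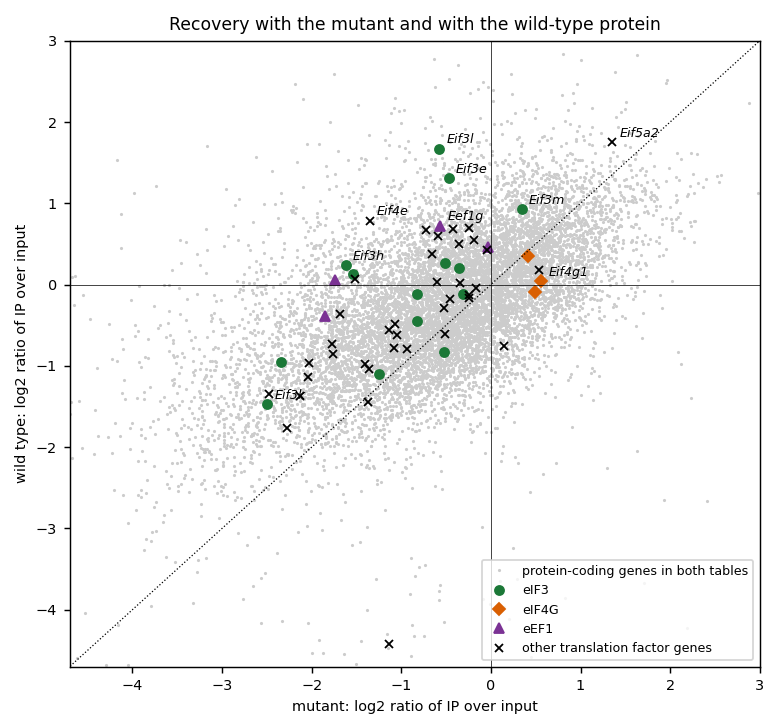
Log2 ratio of IP over input in the mutant (x axis) against the wild type (y axis), with protein-coding genes in both tables in grey, translation factor genes as symbols and equality as the dotted diagonal; genes outside the axes are not drawn. Eif3l, Eif3e and Eif4e lie far above the diagonal, and the 3 eIF4G genes lie below it.

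Among the factors that deliver the initiator tRNA, the subunits of eIF2 differed from each other. Eif2s1, the alpha subunit that stress kinases phosphorylate, stood at 22.5 FPKM in the mutant IP against 33.9 in its input, and at 35.3 in the wild-type IP against 23.4 in its input. Eif2s2, the beta subunit, stood at 32.8 in the mutant IP against 105 in its input (3.21-fold lower), and at 46.2 in the wild-type IP against 59.6 in its input. Eif2s3x, the gamma subunit that binds the tRNA, stood at 62.0 in the mutant IP against 70.7 in its input, and at 51.1 in the wild-type IP against 35.0 in its input. The alpha and gamma genes were thus above their input with the wild-type protein and below it with the mutant, though above it in both after centring, and the beta gene was below it with both. Differences in log2 ratio were −1.18, −1.32 and −0.74 for alpha, beta and gamma.

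Eif2a and Eif2d, which can bring tRNA to the ribosome without eIF2, had log2 ratios of −0.60 and −0.53 in the mutant and 0.03 and −0.29 in the wild type. Of the 5 genes of the exchange factor eIF2B, 3 were lower in the mutant IP (Eif2b2, Eif2b3 and Eif2b4, from −1.36 to −1.05), where 37.8% of all genes were. Eif2b4 was lower in the wild type too, at −1.03, where 23.3% of all genes were. None of these calls held after centring. Eif2b5, the catalytic subunit, stood at 20.1 FPKM in the mutant IP against 31.7 in its input, and at 39.6 in the wild-type IP against 30.4 in its input. Eif2b1 lay near its input in both, at −0.25 and −0.13.

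The eIF1 and eIF1A genes encode small proteins that help the scanning ribosome find the start codon. Eif1 stood at 48.5 FPKM in the mutant IP against 165 in its input (3.40-fold lower), and at 79.4 in the wild-type IP against 143 in its input, and its paralogue Eif1b had log2 ratios of −1.41 in the mutant and −0.98 in the wild type. The eIF1A genes differed from these. Eif1a stood at 28.1 in the mutant IP against 33.4 in its input, and at 32.4 in the wild-type IP against 19.9 in its input. Eif1ax stood at 9.13 in the mutant IP against 15.1 in its input, and at 27.3 in the wild-type IP against 17.1 in its input. Both eIF1A genes were above the input with the wild-type protein and below it with the mutant (Eif1a at 0.36 in the mutant after centring), whereas Eif1 and Eif1b were below it with both.

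Eif5a, a factor that relieves stalled ribosomes and carries the amino acid hypusine, was among the abundant mRNAs that both IPs left behind. It stood at 103 FPKM in the mutant IP against 421 in its input and at 176 in the wild-type IP against 389 in its input. Its log2 ratio was −2.04 in the mutant (−1.43 after centring) and −1.14 in the wild type (−0.85 after centring). Its paralogue Eif5a2 (chr3:28781276-28798846) was the opposite, and the single gene higher in both IPs. It stood at 1.31 in the mutant IP against 0.506 in its input (2.55-fold), and at 4.25 in the wild-type IP against 1.26 in its input (3.36-fold). These levels are low, and with 1 added in place of 0.01 its log2 ratio was 0.62 in the mutant and 1.22 in the wild type. Eif5, the GTPase-activating protein of eIF2, had −0.04 in the mutant and 0.42 in the wild type, and the GTPase gene Eif5b −0.51 and −0.61. Eif6, which keeps the large subunit from joining, was lower in both, with 46.0 in the mutant IP against 119 in its input, and 31.8 in the wild-type IP against 87.0 in its input.

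The elongation factors Eef1a1 and Eef2 gave the most abundant of these mRNAs. Eef1a1, which carries aminoacyl-tRNA, stood at 1348 FPKM in the mutant IP against 1376 in its input, and at 2278 in the wild-type IP against 1652 in its input. Eef2, the translocase, stood at 483 in the mutant IP against 542 in its input, and at 696 in the wild-type IP against 716 in its input. Neither was past the threshold in either construct. The exchange factor subunits Eef1b2, Eef1d and Eef1g lay further apart between the constructs.

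Eef1b2 stood at 48.0 FPKM in the mutant IP against 160.1 in its input (3.34-fold lower), and at 182 in the wild-type IP against 175 in its input. Eef1d stood at 44.0 in the mutant IP against 159 in its input (3.61-fold lower), and at 103 in the wild-type IP against 136 in its input. Eef1g stood at 260.5 in the mutant IP against 385 in its input, and at 789 in the wild-type IP against 478 in its input. All 3 had a lower ratio in the mutant than in the wild type, with differences of −1.79, −1.46 and −1.29 (−0.98 for Eef1g after centring, when its wild-type ratio of 1.02 passed the threshold).

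Of 11 enzymes and partners that share the name, 8 were lower in the mutant IP, where 37.8% of all genes were, and 3 in the wild-type IP, where 23.3% of all genes were, with medians of −1.14 in the mutant and −0.76 in the wild type. The eEF1A lysine methyltransferase genes Eef1akmt1 and Eef1akmt4 were lower in both, at −2.48 and −2.28 in the mutant and −1.34 and −1.77 in the wild type. Eef1e1, a partner of the tRNA synthetase complex, Eef2kmt, an eEF2 methyltransferase, and Eif1ad, an eIF1A-domain protein, were lower in the mutant alone at this threshold, at −2.04, −1.77 and −1.52, against −0.97, −0.73 and 0.07 in the wild type. Of these, Eif1ad did not pass after centring (−0.91). Eef1akmt2 and Eefsec, the selenocysteine elongation factor, were just past the threshold in the mutant, at −1.14 and −1.08, and not after centring. Eef1akmt3 was the 1 gene with a difference above 1, but it stood at 0.101 FPKM in the mutant IP against 0.233 in its input, and in the wild type the IP was listed at 0 and the input at 0.204, so no fold is given. Eef1aknmt, which methylates eEF1A at its N terminus, stood at 5.50 in the mutant IP against 4.96 in its input, and at 1.65 in the wild-type IP against 2.79 in its input. The kinase gene Eef2k and Eif4enif1, an eIF4E transporter, lay within 2-fold of input in both.

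Many mRNAs of the translation machinery begin with a 5′ terminal oligopyrimidine (TOP) tract, through which growth signals control their translation. Of 9 genes listed as TOP mRNAs (Eef1a1, Eef1b2, Eef1d, Eef1g, Eef2, Eif3e, Eif3f, Eif3h and Eif4b), 8 had a lower ratio in the mutant than in the wild type, by at least 1 for 6, where 63.2% of all genes were lower and 26.1% by at least 1. The exception was Eif4b. After centring, 7 of 9 were lower, with Eef2 the further exception, and 5 by at least 1. Of the 50 genes not on the list 42 were lower, by at least 1 for 13. The median log2 ratio was −0.56 in the mutant (0.04 after centring) and 0.18 in the wild type, with a median difference of −1.46. For the 50 other genes the medians were −0.69 in the mutant and −0.23 in the wild type, with a difference of −0.57.

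Sequence around the annotated start was read from RefSeq promoters (GRCm38.p6), since TOP mRNAs begin with a run of pyrimidines. The windows below run from 20 bases before to 30 bases after the annotated start, 5′ to 3′ on the gene's strand, and the capitals mark the longest run made only of C and T. They are shown for the TOP genes with an entry and for Eif3l and Eif4g1, which had differences of opposite sign.
Eif3l (chr15:79075203-79075252, + strand): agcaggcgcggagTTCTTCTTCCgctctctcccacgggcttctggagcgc
Eif3f (chr7:108934395-108934444, + strand): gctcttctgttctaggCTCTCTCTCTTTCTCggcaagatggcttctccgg
Eef1b2 (chr1:63176811-63176860, + strand): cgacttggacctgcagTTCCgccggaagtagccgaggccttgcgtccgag
Eef1a1 (chr9:78481695-78481744, − strand): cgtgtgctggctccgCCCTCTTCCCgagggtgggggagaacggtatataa
Eef2 (chr10:81176611-81176660, + strand): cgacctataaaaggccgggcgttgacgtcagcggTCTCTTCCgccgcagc
Eif4b (chr15:102073753-102073802, + strand): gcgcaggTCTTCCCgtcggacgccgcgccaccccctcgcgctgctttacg
Eif4g1 (chr16:20672707-20672756, + strand): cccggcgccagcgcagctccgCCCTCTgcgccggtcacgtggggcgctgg

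The run was 15 bases in Eif3f, 10 in Eif3l and Eef1a1, 8 in Eef2, 7 in Eif4b, 6 in Eif4g1 and 4 in Eef1b2. A run of at least 15 bases was found in 1.74% of all 32851 promoter windows, and one of at least 10 in 8.77%. The 47 translation factor genes with an entry outside chromosome 18 had 61 windows, of which 14 (23.0%) held a run of at least 8, against 19.0% of all windows. By gene, 12 of the 47 had such a run in at least 1 window. The median difference, mutant minus wild type, was −0.66 for those 12 genes and −0.47 for the other 35. Runs were counted anywhere in the window, so a counted run need not be a TOP tract. In Eif4b the run began at −13 and ended before the annotated start, and in Eef2 it began at position 15. In Eef1a1 it began at −5 and lay upstream of the bases tatataa, the form of a TATA box, so it need not be part of the mRNA. A run in such a window is a description of the annotated start and not a measured 5′ end.

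The peak lists showed where along these RNAs the recovery was concentrated. The deposited lists give a strand for each peak of each IP, and each peak's fold is the value the authors gave. Counting peaks whose summit lay in the span of the gene on the same strand, the mutant list held 32 peaks in 12 of the 59 genes, and the wild-type list 96 peaks in 30. The share of genes with a peak was 20.3% in the mutant, against 21.9% of protein-coding genes, and 50.8% in the wild type, against 29.4%. Among genes with inputs of at least 10 FPKM in both cultures, the shares were 22.2% of 45 translation factor genes in the mutant, against 28.2% of protein-coding genes, and 62.2% in the wild type, against 38.8%. All 12 genes with a mutant peak had a wild-type peak too. The mutant list was the longer of the lists, with 15931 peaks in all against 11912.

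By gene, 23 of the 59 (39.0%) had more peaks in the wild type and 4 (6.78%) more in the mutant, where 19.4% and 13.9% of protein-coding genes did. The 4 genes with more mutant peaks were Eif4g1, Eif4g2, Eif4g3 and Eif4b. Eif4g1 held 10 mutant and 5 wild-type peaks, Eif4g2 6 and 4, Eif4g3 2 and 1, and Eif4b 5 and 3. These 4 genes carried 23 of the 32 mutant peaks. At the other end, Eif3e held 0 mutant and 12 wild-type peaks, Eif3l 0 and 10, Eef1g and Eif3a 0 and 6 each, Eif3m 1 and 6, and Eif2s3x 1 and 5. eIF3 as a whole held 2 mutant peaks and 40 wild-type peaks.

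**Figure D4:**
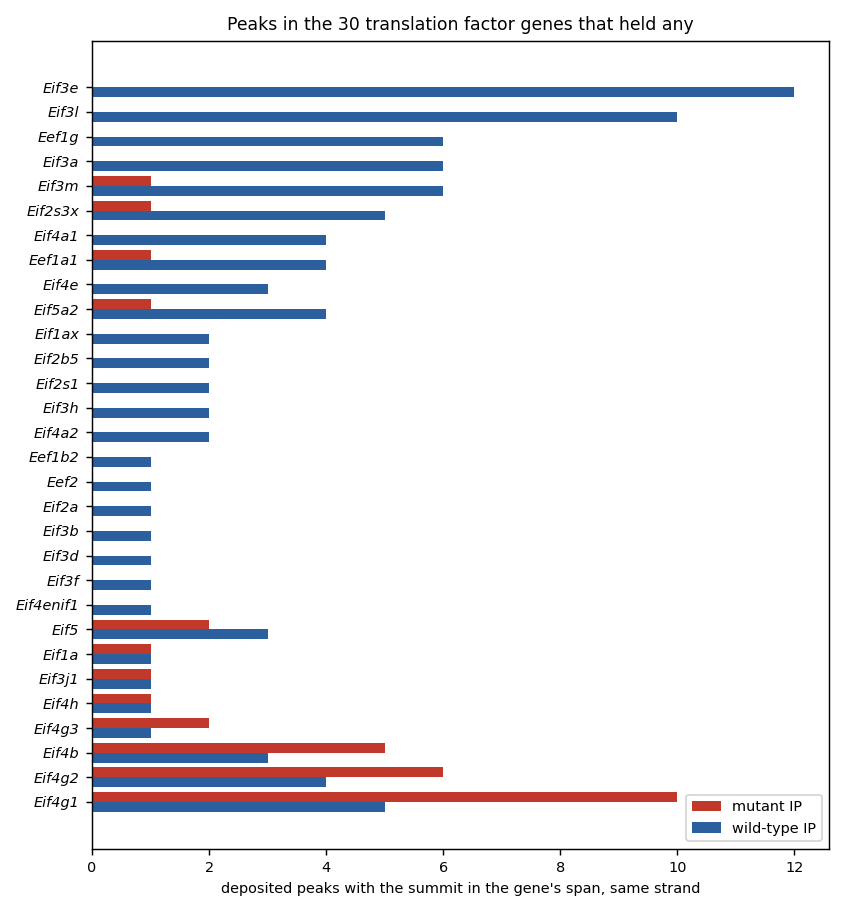
Number of deposited peaks (x axis) with the summit in the gene's span on the same strand, for the 30 translation factor genes with at least 1 peak; mutant bars lie above wild-type bars. Eif3e (12) and Eif3l (10) lead the wild-type list with 0 mutant peaks, and Eif4g1 (10 against 5) leads the mutant list.

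By fold, the strongest wild-type peaks lay in Eif3e, Eif2s1, Eif3m and Eif3l. The highest, in Eif3e (chr15:43263227-43263524), had a fold of 15.4, and others in that gene had 12.0 (chr15:43275267-43275531) and 10.3 (chr15:43261130-43261363). Eif2s1 held one of 11.4 (chr12:78874367-78874616), Eif3m one of 11.3 (chr2:105001322-105001590) and Eif3l one of 10.2 (chr15:79086272-79086580). Of these 6 peaks only that of Eif3m overlapped a mutant peak, which had a fold of 6.01. The mutant peaks of highest fold were in Eif3j1, with a fold of 6.21 at the start of the gene, Eif3m, Eif5a2 (4.85), Eif2s3x (4.68) and Eif4g1 (3.43). Their −log10 q-values were 6.13 in Eif3j1 and 3.41 in Eif5a2, against 114 in Eif3m, 38.9 in Eif2s3x and 179 in Eif4g1.

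In Eif3e the 12 wild-type peaks were spread from 4.25 to 32.5 kb along a span of 32.7 kb, and in Eif3l the 10 peaks from 0.585 to 19.0 kb along 19.2 kb. Peaks thus ran over the whole length of these genes rather than lying at 1 place. Widths ran from 200 to 1952 bases in the mutant and from 200 to 1941 in the wild type. The median summit lay at 71.5% of the span in the mutant and 72.3% in the wild type, and the last 20% of the span held 13 of 32 mutant and 40 of 96 wild-type summits. Exon models were not used here, so peaks were not assigned to exons, introns or untranslated regions.

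**Figure D5:**
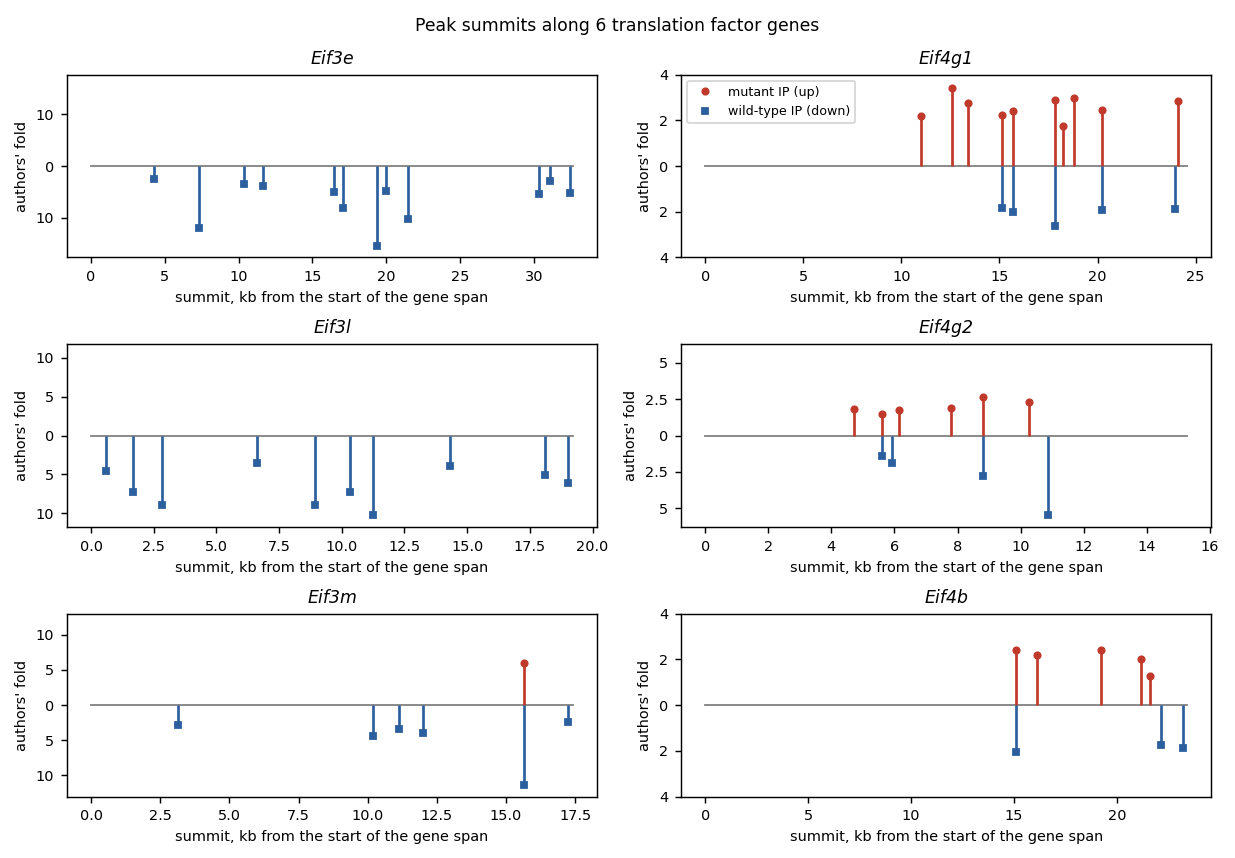
Peak summits along 6 translation factor genes, as distance in kb from the start of the gene's span in the direction of transcription (x axis), with the authors' fold as height (y axis), mutant upward and wild type downward. Eif3e and Eif3l hold wild-type peaks along the whole span and 0 mutant peaks, while Eif4g1, Eif4g2 and Eif4b hold peaks of both, at folds of at most 5.45.

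Of the mutant peaks in these genes, 21 of 32 (65.6%) overlapped a wild-type peak by at least 1 base, and of the wild-type peaks 22 of 96 (22.9%) overlapped a mutant peak. For all peaks in protein-coding genes the shares were 37.1% and 50.5%. With an overlap of at least 50% of both peaks required, 16 of 32 mutant and 16 of 96 wild-type peaks were shared, so under both rules most wild-type peaks lay where the mutant list had none. All 5 wild-type peaks of Eif4g1 and all 4 of Eif4g2 overlapped mutant peaks, whereas none of the 28 in Eif3e, Eif3l and Eif3a did. The median fold was 2.38 in the mutant and 2.80 in the wild type, below the 4.19 and 3.74 of all peaks in protein-coding genes.

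The 29 genes without any peak had lower wild-type ratios at the median. Their log2 ratio in the wild type had a median of −0.80 and did not exceed 0.07, while the 30 with a wild-type peak ran from −0.18 to 1.75 with a median of 0.37. Peaks and ratios come from the same IP library, so this contrast is not independent. The 29 genes also had lower inputs, with medians of 24.2 FPKM in the mutant and 16.6 in the wild type. For the 30 genes with a wild-type peak these medians were 87.8 and 93.0. Some of the 29 were abundant, such as Eif5a, Eif1, Eif2s2, Eif3g, Eif3i, Eif3k, Eef1d and Eif6, all above 50 FPKM in both inputs. Of the 59 genes, 8 hold small nucleolar RNA genes in RefSeq, 15 in all with 5 in Eif4a2 and 3 in Eif4a1, and 0 of the peak summits fell in them.

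Over all protein-coding genes the median ratio was higher in longer genes, so the translation factors are set beside genes of like span. Of the 59, 26 had spans up to 13.9 kb, with a median log2 ratio of −1.19 in the mutant and −0.61 in the wild type, against −1.25 and −0.69 for the 3753 protein-coding genes of that class. The 26 with spans from 13.9 to 39.0 kb had −0.52 in the mutant and 0.11 in the wild type, against −0.48 and −0.21. The 7 longer genes had −0.51 and −0.17, against 0.12 and 0.07. Short translation factor genes lay near other short genes in both constructs. In the middle class, 17 of 26 had a wild-type ratio above the class median and 12 of 26 a mutant ratio above it. The difference there was −0.68 for the translation factors and −0.33 for the class.

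Regulators and other genes of translation gave a background of related function. Of a list of 55 such genes 53 were in both tables. In the mutant IP 2 were higher and 15 lower, where 6.69% and 37.8% of all genes were. In the wild-type IP 3 were higher and 8 lower, where 8.59% and 23.3% of all genes were. Their median log2 ratios were −0.14 in the mutant and −0.07 in the wild type. In the mutant the highest log2 ratios were those of Larp4b (1.03) and Larp4 (0.96), which encode RNA-binding proteins that bind poly(A)-binding protein, and of the kinase gene Mtor (1.02). The lowest were those of Tpt1 (−3.08), of Rack1 (−2.47), which encodes a small-subunit scaffold, and of Rps6 (−2.39), which encodes a ribosomal protein. In the wild type the highest were Mcts1 (1.12) and its copy Mcts2 (1.00), of a reinitiation factor, and Abce1 (1.00), a ribosome recycling factor. The lowest were Eif4ebp1 (−1.48), Rps6kb2 (−1.31) and Abcf1 (−1.29). Mcts2 was low, at 1.95 FPKM in the wild-type IP against 0.971 in its input, and as a copy may share reads with Mcts1. Between constructs 10 of the 53 were lower in the mutant by at least 1 (18.9%) and 2 higher (3.77%), where 26.1% and 7.37% of all genes were.

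Some of these genes have close copies whose reads may be shared, and the sources used here do not say how such reads were counted. The mutant table held 6 pseudogenes named after these factors, with levels up to 7.66 FPKM (Eif4a-ps4). Values of Eif1, Eif1a, Eif1ax, Eif3j1, Eif3j2, Eif4a1, Eef1a1 and Eif5a carry that uncertainty. One more factor gene, annotated as eIF4E member 3, was in the wild-type table alone, with an IP level of 7.85 FPKM and an input level of 7.03.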

How the data were processed

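Per the submitters' processing notes, the tools included bedtools, HOMER 4.11.1, HISAT2 2.1.0 and MACS2 2.2.7.1, and the builds were mm10 and GRCm38; their roles are not stated. The authors deposited 1 level per gene and library, read here as FPKM: in 859 processed pseudogenes the evidence behind the deposited p-value, at a given level, grew with gene length (Spearman correlation of 0.932 over these genes, which are not replicates), and column sums ran from 207301 to 321238. The deposited log2 ratio equals that of the levels with 0.01 added. The deposited q-value was used in an alternative only. In the deposited peak lists (narrowPeak layout, 1 IP library each) the authors gave a fold, a score and −log10 p-values and q-values per peak; the sources used here do not name the control of the peak calling.

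Symbols stood in the mutant table and were carried by gene identifier. Ratios, calls and peak assignments were computed with Python 3.11.15 and pandas 2.3.3, and tested on simulated data. Depth is unknown, so no interval was given. The genes and lists were chosen with earlier results of these data known. Genes were named by a rule: those past 2-fold, the extremes of each factor, those with the strongest peaks, paralogues, and the extremes of the list of other translation genes. Further members were named to account for each factor, and the genes shown by sequence or position were chosen after their values were seen. The search for pyrimidine runs was chosen after the values were seen.

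The alternatives were a pseudocount of 1, centring, a level of at least 1, a q-value under 0.05, a fold of 1.5, and other peak rules. A planned motif search in peak sequences and a comparison of protein sequences were not run, since the genome and protein sequences they need were not available here. No column of the tables was left unmapped.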

Additional observations from a re-analysis of the deposited data

Results flagged for a closer look

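In 7 genes the log2 ratio was below 0 in the mutant and above 0 in the wild type, and at least 2-fold from input in one of them. In the wild type it was near 0 for Eef1b2 (0.06), Eif1ad (0.07) and Eif3f (0.13), and 0.24 for Eif3h. Mutant minus wild type, the difference in log2 ratio was −2.25 for Eif3l, −2.14 for Eif4e, −1.86 for Eif3h, −1.79 for Eef1b2, −1.78 for Eif3e, −1.66 for Eif3f and −1.59 for Eif1ad. With 1 library a group these differences were not tested. The share of all genes that meet the flagging rule was not computed. Opposite signs at any size were held by 35.6% of the 59 genes and 18.5% of all genes. After centring these shares were 13.6% and 15.6%. In the mutant, Eif3l and Eif3e lay above 0 after centring.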

How the results depend on the processing

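No paired analysis was possible because each group held 1 library and the results come from no test. For the same reason no replicate could be left out. Centring each table on the median of its genes gave 5 higher and 13 lower genes in the mutant (1 and 25 as reported), 6 higher in the wild type (3 as reported), and 11 genes lower and 2 higher by at least 1 between constructs (19 and 1). With a pseudocount of 1 the mutant had 0 higher genes, and 0 genes were higher by at least 1 between constructs, as with a level of at least 1. A fold of 1.5 gave 10 higher and 20 lower genes in the wild type, and 29 lower and 2 higher between constructs. Centred medians in the mutant were −0.0518 for all 59 genes, −0.46 for eIF1, 0.0172 for eIF2, −0.44 for eIF2B, −0.10 for eIF3, 0.22 for eIF4, 0.33 for eIF5 and 0.0429 for eEF. In the wild type they were 0.17, 0.21, 0.33, −0.19, 0.30, 0.40, 0.20 and 0.35 in the same order. A pseudocount of 1 gave −0.88 for eIF1 and −0.91 for eIF2B in the mutant, and a level of at least 1 gave −0.83 for eIF3 in the mutant and 0.13 in the wild type. The counts of genes with a peak and of shared peaks stayed within 1.5-fold under every peak rule run, and requiring the deposited q-value kept all 6 counts of calls within 1.5-fold. That q-value rule could drop few genes, since 56 of the 59 had a q-value under 0.05 in each construct. No called gene changed sign under these settings, but for a ratio of IP over input none could. Centring shifts it by less than the threshold, and a pseudocount keeps the order of IP and input. The causes of the shifts were not tested. Low genes such as Eef1akmt3 and Eif5a2 depend on the pseudocount, since depth is unknown.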
